A study of Mus musculus with 60 samples.

Results

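The T cell receptor (TCR) repertoires of CD4+ and of CD8+ donor T cells were compared in the liver of recipients in a model of graft-versus-host disease, in 24 of the 60 libraries of the study. The members were the 6 CD4 and the 6 CD8 liver libraries of the TCR alpha chain (TCRA) and the same numbers of the TCR beta chain (TCRB), chosen by their tissue label. Donor T cells came from C57BL/6 mice that were wild type (WT), lacked STAT3 (STAT3ko, Stat3 fl/fl with CD4-Cre, so that deletion followed the Cd4 promoter in T cells), or lacked both STAT3 and PD-1 (STAT3koPD-1ko, the same conditional allele with a germline PD-1-/-). All recipients were lethally irradiated WT BALB/c mice, which also received T cell-depleted bone marrow of WT C57BL/6 donors, so the 3 groups differed only in the donor T cells. On day 6 after hematopoietic cell transplantation (HCT), liver lymphocytes of 3 recipients were pooled for each sample, and donor-type cells (H-2Kb+TCRβ+) were sorted as CD4+ or CD8+. Each genotype had 2 such samples, numbered 1 and 2. A CD4 and a CD8 library with the same genotype and number were treated as a pair, 6 pairs per chain. The paper states that CD4+ and CD8+ cells for RNA sequencing came from the same liver tissue. It also describes the TCR samples as 2 batches, each pooled from 3 mice. It does not say that a library number stands for the same pool in both cell types. P-values therefore measured the spread between these pools. Equal numbers of cells had gone into RNA extraction, but the values are shares of TCR transcripts, so more cells with a segment and more RNA per cell cannot be told apart.

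Each TCR chain is built from a variable (V) and a joining (J) gene segment, with a diversity (D) segment between them in the beta chain. Bases lost or added where the segments meet make the complementarity determining region 3 (CDR3), the loop that lies over the peptide. CD4+ T cells recognise peptides on major histocompatibility complex (MHC) class II and CD8+ T cells on MHC class I, and the V segments contribute the loops that touch the MHC molecule itself. BALB/c mice also carry endogenous mammary tumor virus superantigens, proteins presented by MHC class II that bind particular Vβ segments whatever the CDR3, whereas C57BL/6 donors lack the I-E molecule that presents them best.

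A clonotype was defined by 3 entries of the deposited tables, the CDR3 in amino acids, the V and the J. A liver library listed 11502 to 23965 clonotypes, which held 94.8% to 97.9% of TCRA reads and 85.6% to 96.3% of TCRB reads. The tables held no read counts, so depth is unknown, and no Cd4, Cd8a or Cd8b1 transcript, so the sort could not be checked against these markers. Each table listed a CDR3 once, with 1 V, 1 J and 1 nucleotide sequence standing for all libraries of that cell type. P-values for V usage therefore do not include uncertainty in the V listed for a CDR3. Of the TCRA CDR3 found in both the CD4 and the CD8 table, 99.9% carried the same J but 29.9% the same V, and of those of TCRB 99.0% and 35.3%. Those CDR3 made up 69.1% to 73.3% of the listed TCRA frequency and 35.2% to 42.9% of that of TCRB. V usage was therefore also computed with the V of these CDR3 taken from 1 of the tables, and those values are given below for the segments where they differed most. Liver libraries of replicate 1 stood apart in another way. They overlapped the spleen library of their genotype, labelled as before HCT, by 45.1% to 57.4% of frequency in TCRA and 39.0% to 53.7% in TCRB, against 16.4% to 22.5% and 5.03% to 8.37% for replicate 2, so counts of calls are also given within each replicate number.

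Some clonotypes were found in every one of the 12 liver libraries of a chain, CD4 and CD8 alike, and those described among the results are shown first as examples. Each line gives the CDR3 by its amino acids, then its nucleotides from 5′ to 3′ as the deposited tables list them, with bases between the end of V and the start of J in capitals. The first 5 TCRA sequences ranked highest by the lower of their 2 mean frequencies, in CD4 and in CD8, 2 of them on TRAV16N, and the next 4 are among those with the most unequal frequency.
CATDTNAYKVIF (TRAV8D-1, TRAJ30): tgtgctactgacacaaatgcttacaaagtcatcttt
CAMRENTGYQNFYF (TRAV16N, TRAJ49), CD4 table: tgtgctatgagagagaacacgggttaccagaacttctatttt
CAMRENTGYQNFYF (TRAV16N, TRAJ49), CD8 table: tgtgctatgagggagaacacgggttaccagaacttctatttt
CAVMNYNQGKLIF (TRAV7-5, TRAJ23), CD4 table: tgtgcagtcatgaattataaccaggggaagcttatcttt
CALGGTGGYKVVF (TRAV6-5, TRAJ12), CD4 table: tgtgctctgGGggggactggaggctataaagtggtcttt
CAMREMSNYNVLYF (TRAV16N, TRAJ21): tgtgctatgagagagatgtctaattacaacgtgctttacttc
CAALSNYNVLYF (TRAV7D-2, TRAJ21), CD4 table: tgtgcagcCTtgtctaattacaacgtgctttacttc
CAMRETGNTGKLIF (TRAV16N, TRAJ37), CD8 table: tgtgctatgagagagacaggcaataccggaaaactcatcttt
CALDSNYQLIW (TRAV8D-1, TRAJ33): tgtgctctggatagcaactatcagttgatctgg
CALRDYSNNRLTL (TRAV12N-3, TRAJ7), CD8 table: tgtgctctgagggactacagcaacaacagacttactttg
The TCRB clonotypes, a selection by the same criteria, mostly had bases of the D segment or added bases between V and J, so more of each sequence is in capitals.
YAEQFF (TRBV21, TRBJ2-1), the most frequent of them and without the usual cysteine: tatgctgagcagttcttc
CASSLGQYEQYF (TRBV14, TRBJ2-7), CD4 table: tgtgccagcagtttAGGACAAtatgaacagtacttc
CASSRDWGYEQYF (TRBV16, TRBJ2-7), CD4 table: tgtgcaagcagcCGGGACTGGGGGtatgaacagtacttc
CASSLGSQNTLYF (TRBV12-1, TRBJ2-4): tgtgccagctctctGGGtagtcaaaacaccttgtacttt
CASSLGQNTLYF (TRBV12-1, TRBJ2-4), CD4 table: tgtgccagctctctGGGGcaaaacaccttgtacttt
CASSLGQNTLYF (TRBV12-1, TRBJ2-4), CD8 table: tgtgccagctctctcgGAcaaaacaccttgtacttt
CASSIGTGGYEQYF (TRBV19, TRBJ2-7): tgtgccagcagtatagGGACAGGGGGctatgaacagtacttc
For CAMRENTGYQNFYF and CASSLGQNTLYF the tables of the 2 cell types listed different nucleotides for the same amino acids.

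CD4+ and CD8+ T cells in the liver used TRBV segments to widely different extents. TRBV26, TRBV23, TRBV16 and TRBV15 were higher in CD4, and TRBV29, TRBV12-1, TRBV12-2 and TRBV17 were higher in CD8. As tested with limma on log2(percent of listed frequency + 0.1) with the pair in the fit, 19 of the 20 segments that averaged 0.5% or more of usage differed at an adjusted p below 0.05 (95%), 11 higher in CD4 (55%) and 8 higher in CD8 (40%). With nearly all segments called, the size of the differences distinguishes the segments better than the call. Fold values below are on the scale of percent + 0.1, which understates the change of rare segments.

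TRBV26 (Vβ3, chr6:41227505-41227993, + strand, GRCm38), a segment that responds to superantigens of BALB/c, ranged from 7.12% to 12.4% of TCRB in CD4 (median 8.59%) and from 0.838% to 1.09% in CD8 (median 0.886%). The groups did not overlap, and the 2 WT pools were the highest in both cell types. The difference was 8.82-fold (log2 3.14 ± 0.0748 SE, adjusted p = 4.5e-16). Nearly all TRBV26 sequences (17810 of 17815 in the CD4 table and 2414 of 2415 in the CD8 table) were listed with a CDR3 that began upstream of the usual cysteine, so they could match no other V and were left out of the CDR3 measurements below. TRBV23 (chr6:41216073-41216526, + strand) ranged from 3.05% to 5.13% in CD4 (median 3.47%) and from 0.179% to 0.418% in CD8 (median 0.260%), again without overlap. This was the largest relative difference among the TRBV segments (10.4-fold, log2 3.38 ± 0.0696, adjusted p = 1e-16).

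TRBV16 (Vβ11, chr6:41151740-41152230, + strand), another segment with superantigen reactivity, was the most used segment in CD4 at 14.7% to 16.9% (median 15.1%) and held 5.30% to 6.33% of CD8 (median 5.67%). It was higher in CD4 in 6 of 6 pairs (log2 1.41 ± 0.0644, adjusted p = 2e-12), and the difference was 0.60 with the V of shared CDR3 taken from the CD4 table and 0.93 with that of the CD8 table. TRBV15 (Vβ12) ranged from 4.63% to 6.44% in CD4 and from 1.91% to 2.31% in CD8 (log2 1.42 ± 0.0827, adjusted p = 4.4e-11), but this difference was -0.0050 with V taken from the CD4 table and 0.76 with V from the CD8 table. Over CDR3 listed in only 1 of the tables it was 0.90, so the TRBV15 difference was absent in 1 of these 3 settings.

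TRBV29 (chr6:41271394-41271881, + strand) led the segments of CD8 at 19.5% to 22.6% (median 20.9%) and held 2.17% to 3.99% of CD4 (median 2.96%). No CD4 library came near the lowest CD8 library, and the difference was 6.91-fold (log2 -2.79 ± 0.0916, adjusted p = 2.7e-14). With the V of shared CDR3 from the CD4 or the CD8 table it was -2.17 and -1.64. TRBV12-1 and TRBV12-2 (Vβ5.2 and Vβ5.1), which belong to the superantigen list as well, went the same way. TRBV12-1 held 0.745% to 1.27% of CD4 and 5.11% to 7.50% of CD8 (log2 -2.45 ± 0.0747, adjusted p = 1.2e-14), and TRBV12-2 held 1.00% to 1.496% of CD4 and 5.85% to 7.12% of CD8 (log2 -2.30 ± 0.0766, adjusted p = 2.7e-14). These stayed called but shrank to -0.64 and -0.82 with V from the CD8 table. TRBV17 held 0.992% to 1.54% of CD4 and 3.24% to 4.24% of CD8 (log2 -1.59 ± 0.0884, adjusted p = 2.5e-11), and -1.23 and -0.94 with V from the CD4 or the CD8 table.

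Of the 5 superantigen-reactive segments of BALB/c (TRBV26, TRBV16, TRBV15, TRBV12-1 and TRBV12-2), 3 were higher in CD4 and 2 higher in CD8, close to the shares over all 20 segments (55% and 40%), so the list did not stand apart by direction. Its median log2 difference, that of TRBV16, was 1.41 beside 0.25 over all segments, and TRBV15 among the 3 was not called with V from the CD4 table. The TRBV13 family (Vβ8), listed for comparison, differed less. TRBV13-1 and TRBV13-3 were higher in CD8 (log2 -0.35 and -0.49) and TRBV13-2 higher in CD4 (0.21), with overlap between the groups for TRBV13-1 and TRBV13-2. Among the other segments, TRBV2, TRBV20 and TRBV1 were higher in CD4 without overlap (log2 1.54, 1.31 and 1.26), and so was TRBV22, annotated as a pseudogene, at 0.658% to 1.11% against 0.154% to 0.205% (1.82). With V from the CD4 table TRBV2 was at 0.80 and TRBV22 at 0.61, while TRBV1 and TRBV20 did not move. TRBV5 (0.90) was higher in CD4, and TRBV19 (-0.52) and TRBV14 (-0.31) in CD8, the last with overlap and with no call when V came from the CD4 table (-0.08, adjusted p = 0.38) or within replicate 1 pairs (-0.30, adjusted p = 0.055). TRBV3 was the segment not called, at 2.38% to 3.61% in CD4 and 2.31% to 2.95% in CD8 (adjusted p = 0.58). Within pairs of replicate 1 alone 17 segments were called, and 18 within pairs of replicate 2.

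**Figure D1:**
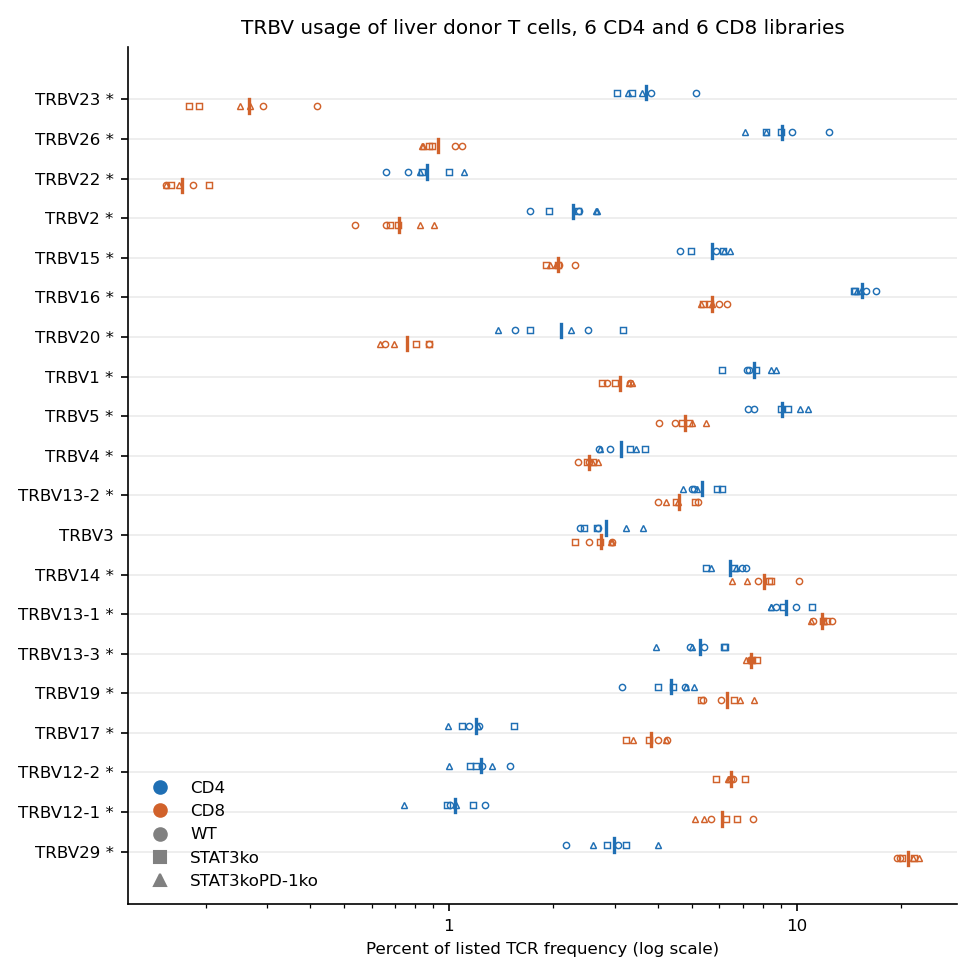
Usage of each TRBV segment in liver, as percent of listed TCRB frequency on a log axis, with 1 point for each of the 6 CD4 (blue) and 6 CD8 (orange) libraries, shapes for the donor genotype, vertical bars for group means and a star for segments called by limma. TRBV29 sits between 19.5% and 22.6% in CD8 and below 4% in CD4, and TRBV26 and TRBV23 show the reverse.

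The number of clonotypes that carried these segments went with their usage. Within TRBV26, the Shannon effective number of clonotypes (the number of equally frequent clonotypes with the same entropy) averaged 2136 in CD4 (1539 to 3180) and 191 in CD8 (147 to 272), and within TRBV29 it averaged 87.4 in CD4 (59.8 to 130) and 803 in CD8 (518 to 1098). The segment's more frequent side was thus spread over more clonotypes, with no overlap between cell types for either. No adjustment was made for the segment's share, so this is not a difference apart from usage. For TRBV16 the ranges overlapped, at 600 to 1193 in CD4 and 334 to 677 in CD8.

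The alpha chain was divided between the cell types as sharply. TRAV16N was by far the most used segment of CD8 and a minor one of CD4, and TRAV14 (Vα2), TRAV21/DV12 and TRAV4 (Vα11) were higher in CD4. Of 43 TRAV segments tested, 39 differed (90.7%), 29 higher in CD4 and 10 higher in CD8. Of 17 TRAV families, formed because duplicated segments of the mouse locus have near-identical sequences between which V assignment is uncertain, 13 differed (76.5%), 9 and 4. Within pairs of replicate 1 and of replicate 2, 37 and 32 segments and 11 and 11 families were called. The TRAV16, TRAV14 and TRAV12 families differed the same way in spleen before HCT (log2 -2.82, 1.81 and -1.36, 3 pairs, not tested).

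TRAV16N (chr14:53351028-53351621, + strand, GRCm38) held 26.7% to 29.0% of CD8 (median 27.2%) and 3.26% to 4.26% of CD4 (median 3.60%). The 2 groups were far apart and each was tight (log2 -2.88 ± 0.0986, 7.37-fold, adjusted p = 1.6e-13). The difference was -2.71 and -2.72 with V from the CD4 or the CD8 table, and -3.70 over CDR3 listed in only 1 of the tables. The TRAV12 family (Vα8) held 4.32% to 5.51% of CD4 and 12.2% to 13.2% of CD8 (log2 -1.37 ± 0.0683, adjusted p = 4.4e-08), led by TRAV12N-3 (-1.96) and TRAV12-2 (-1.55). With V from the CD4 or the CD8 table these were -0.93 and -0.87 for the family, -1.24 and -1.29 for TRAV12N-3 and -0.98 and -0.43 for TRAV12-2. Of the other TRAV12 segments tested, TRAV12D-2 was at -0.58 and TRAV12-3 was higher in CD4 (0.38). The TRAV3 family was also higher in CD8 (-0.84), but fell to -0.24 and -0.17 with V from the CD4 or the CD8 table. Its segment TRAV3-3 lost its call with either (-0.0013 and 0.0851), and TRAV3-4 and TRAV7D-3 lost theirs with V from the CD8 table (-0.12 and -0.18). TRAV15, at -0.39, lost its call without any one of 3 pairs (WT 1, -0.35; WT 2, -0.35; STAT3ko 1, -0.28).

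The TRAV14 family held 16.1% to 18.5% of CD4 (median 17.4%) and 3.48% to 4.66% of CD8 (median 3.98%). It was higher in CD4 in 6 of 6 pairs without overlap (log2 2.09 ± 0.0797, 4.27-fold, adjusted p = 5.7e-09), and 1.39 and 1.53 with V from the CD4 or the CD8 table. Its copies that were tested were all higher in CD4, but TRAV14-1 and TRAV14D-1 less so (0.89 and 0.71) than the rest. TRAV14N-3 (chr14:53370077-53370575, + strand) was at 4.41% to 5.39% in CD4 and 0.359% to 0.761% in CD8 (2.78), and TRAV14-3, TRAV14D-2 and TRAV14D-3-DV8 gave 2.66, 2.40 and 2.25. With V from 1 table these 4 copies ranged from 1.17 (TRAV14D-2, CD4 table) to 1.81 (TRAV14-3, CD8 table). TRAV7, the most used family of CD4, differed less at 20.7% to 25.3% against 13.9% to 16.3% (0.63), although its segment TRAV7D-2 gave 1.62. Most of its other segments were higher in CD4, but TRAV7-3 and TRAV7D-3 were higher in CD8 (-0.53 and -0.57). TRAV4 (1.12), TRAV10 (1.00) and TRAV5 (0.69) were higher in CD4 without overlap, but TRAV10 was not called over CDR3 found in exactly 2 libraries of the join (0.38, adjusted p = 0.073). TRAV9 (Vα3) was not called, at 2.31% to 2.83% in CD4 and 2.14% to 2.73% in CD8 (adjusted p = 0.59).

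The 3 segments TRAV17, TRAV19 and TRAV21/DV12 lie at the end of the V cluster nearest the J segments, which is used in the first rounds of alpha chain rearrangement. All 3 were higher in CD4, as were 29 of the 43 segments tested, with log2 differences of 0.59, 0.98 and 1.59 (median 0.98 beside 0.52 over the 43). TRAV21/DV12 ranged from 1.45% to 2.78% in CD4 and from 0.411% to 0.747% in CD8. TRAV17 overlapped between cell types, with the library STAT3ko 1 at 1.02% in CD8, above 5 of the 6 CD4 libraries, and as a family it was not called within replicate 1 pairs (0.47, adjusted p = 0.17). Over CDR3 found in exactly 2 libraries, neither the TRAV17 nor the TRAV19 family was called (0.28 and 0.36, adjusted p = 0.20 and 0.23). Invariant chains were rare in both cell types. Natural killer T cells carry TRAV11 with TRAJ18, a pairing that held a mean of 0.0484% in CD4 (0.0072% to 0.0853%) and 0.0343% in CD8 (0.0008% to 0.109%), and mucosal-associated invariant T cells carry TRAV1 with TRAJ33, which held 0.0015% in CD4 and 0.0233% in CD8. None of their V segments alone reached the usage needed for the test. Summed as a family, TRAV11 held 0.347% to 0.612% of CD4 and 0.323% to 0.747% of CD8 and was not called (log2 -0.01, adjusted p = 0.94).

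J segments differed less than V segments. Of 12 TRBJ segments 10 differed (83.3%), 6 higher in CD4 and 4 in CD8, and of 42 TRAJ segments 31 differed (73.8%), 16 and 15. Within replicate 1 and replicate 2 pairs, 9 and 8 TRBJ and 24 and 25 TRAJ segments were called. TRBJ1-3 held 5.14% to 6.54% of CD4 and 2.79% to 3.98% of CD8 (log2 0.86 ± 0.0536, adjusted p = 4.3e-08), and TRBJ1-4, TRBJ2-5 and TRBJ2-4 were also higher in CD4 (0.68, 0.55 and 0.50), all without overlap. In CD8, TRBJ2-1 held 14.5% to 16.8% against 8.87% to 9.98% (-0.75 ± 0.0418, adjusted p = 2.8e-08), and TRBJ2-7, the most used TRBJ of both, 25.0% to 26.3% against 16.5% to 19.0% (-0.49). TRBJ1-2 and TRBJ1-1 differed by -0.27 and -0.19, with overlapping groups. TRBJ1-1 was not called within pairs of either replicate number (adjusted p = 0.060 and 0.13), nor TRBJ1-2 within those of replicate 2 (0.082). Summed over a cluster, TRBJ2 segments held 66.8% ± 1.26 (SD, n = 6) in CD4 and 70.1% ± 1.43 (n = 6) in CD8, values with overlapping ranges. On the alpha side, TRAJ27 was the segment with the largest difference toward CD4, at 4.83% to 6.36% against 2.41% to 3.35% (1.02), followed by TRAJ37, TRAJ31 and TRAJ44 (0.73, 0.64 and 0.58). TRAJ22 was highest relative to CD4 in CD8, at 8.22% to 9.87% against 3.72% to 5.13% (-0.97), followed by TRAJ47, TRAJ26 and TRAJ30 (-0.88, -0.82 and -0.76). Restricted to CDR3 found in exactly 2 libraries of the join, the TRBJ calls fell to 5 and the TRAJ calls to 0 by limma (3 at an unadjusted p below 0.05).

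**Figure D2:**
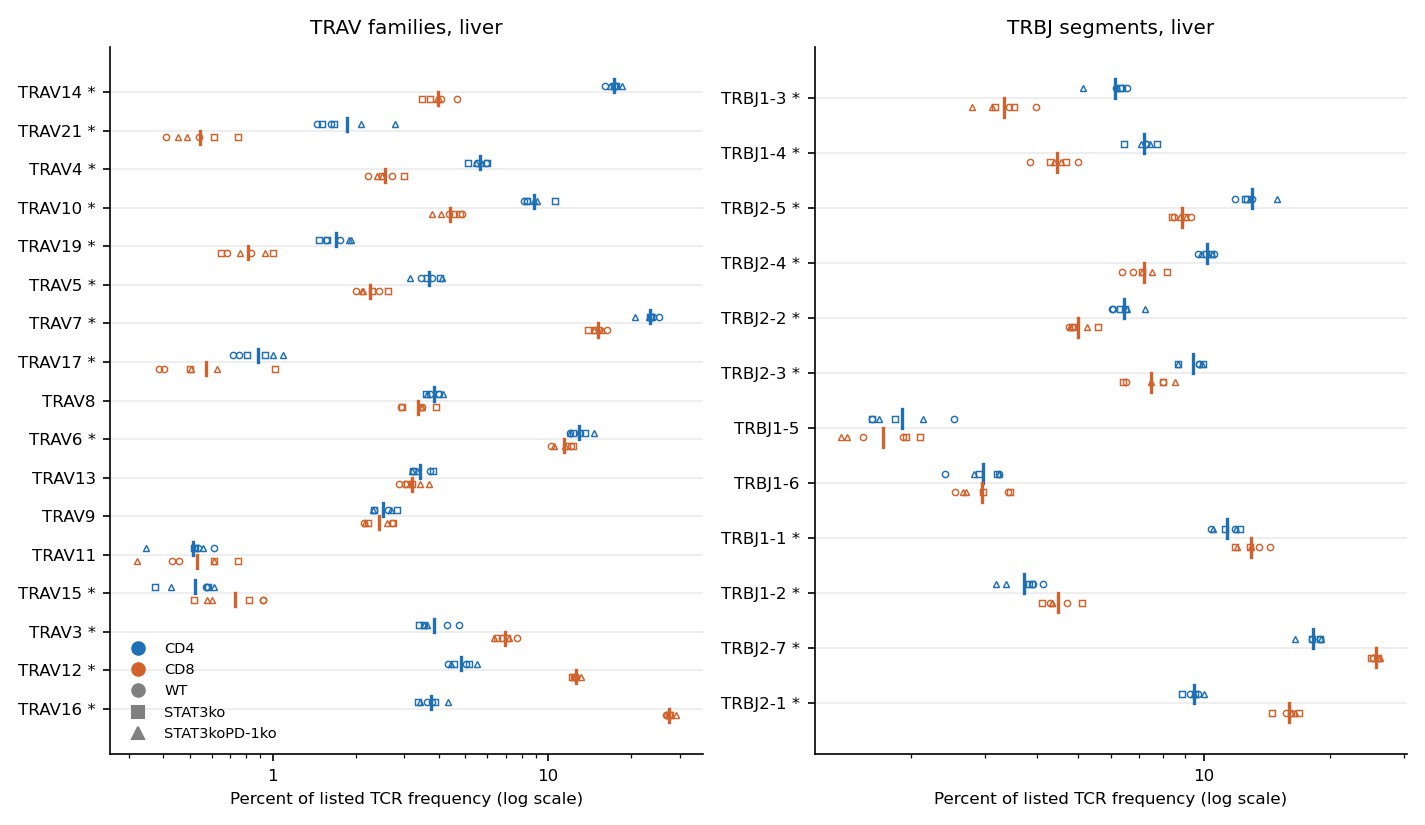
Usage of TRAV families (left) and TRBJ segments (right) in liver, as percent of listed frequency on log axes, with points for the 6 CD4 (blue) and 6 CD8 (orange) libraries, bars for means and stars for those called by limma. TRAV16 lies at 26.8% to 29.1% in CD8 against 3.37% to 4.32% in CD4, a wider gap than that of any TRBJ segment shown.

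The composition of the CDR3 was measured over the middle of each loop, without its first 4 and last 4 residues, weighted by frequency and restricted to CDR3 that began with C and ended with F, W or L. J usage was not held fixed in any setting, so its part in the differences was not tested. In TCRB, CD4 had more glutamine and charged residues and CD8 more aromatic and hydrophobic ones. By limma, 18 of 20 amino acids differed in TCRB (90%), 6 higher in CD4 and 12 in CD8. Glutamine made up 7.45% to 8.14% of residues in CD4 and 5.08% to 5.34% in CD8 (log2 0.60 ± 0.024, adjusted p = 4.2e-06), and glutamate, lysine and arginine were also higher in CD4 (0.42, 0.30 and 0.28). Tyrosine made up 3.97% to 4.49% in CD4 and 5.61% to 5.85% in CD8 (-0.43 ± 0.033, adjusted p = 4.6e-05), and methionine, tryptophan and proline were higher in CD8 as well (-0.46, -0.43 and -0.43). Glutamine, tyrosine, tryptophan and proline did not overlap between the groups. Within replicate 1 pairs 9 amino acids were called and within replicate 2 pairs 16, and in replicate 1 lysine and methionine were not (adjusted p = 0.22 and 0.15). Glutamate reversed to -0.18 when only the first and last 3 residues were left out.

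In TCRA, 12 of 20 amino acids differed (60%), 5 higher in CD4 and 7 in CD8, and 10 and 14 were called within replicate 1 and replicate 2 pairs. With 4 residues left out at each end the largest difference was for lysine, rare in both, at 0.388% to 0.688% in CD4 and 0.141% to 0.228% in CD8 (log2 1.62 ± 0.17, adjusted p = 0.00013). Asparagine, the most frequent of these, made up 20.2% to 21.2% in CD4 and 15.8% to 17.2% in CD8 (0.29), and threonine 8.86% to 9.41% and 7.01% to 7.39% (0.34). Acidic residues went toward CD8. Glutamate made up 2.00% to 2.32% in CD4 and 4.95% to 5.22% in CD8 (-1.26 ± 0.031, adjusted p = 1.9e-07), aspartate 2.58% to 2.92% and 3.94% to 4.21% (-0.58), and tryptophan (-0.77) and phenylalanine (-0.43) were also higher in CD8. When each library was given the same usage of all V segments, the glutamate difference was -0.12 (adjusted p = 0.0062), whereas lysine stayed at 1.23 and aspartate at -0.55. With 3 residues left out at each end lysine fell to 0.22, below the size of the tryptophan (-0.75) and aspartate (-0.49) differences in that setting, and arginine reversed from 0.35 to -0.46.

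**Figure D3:**
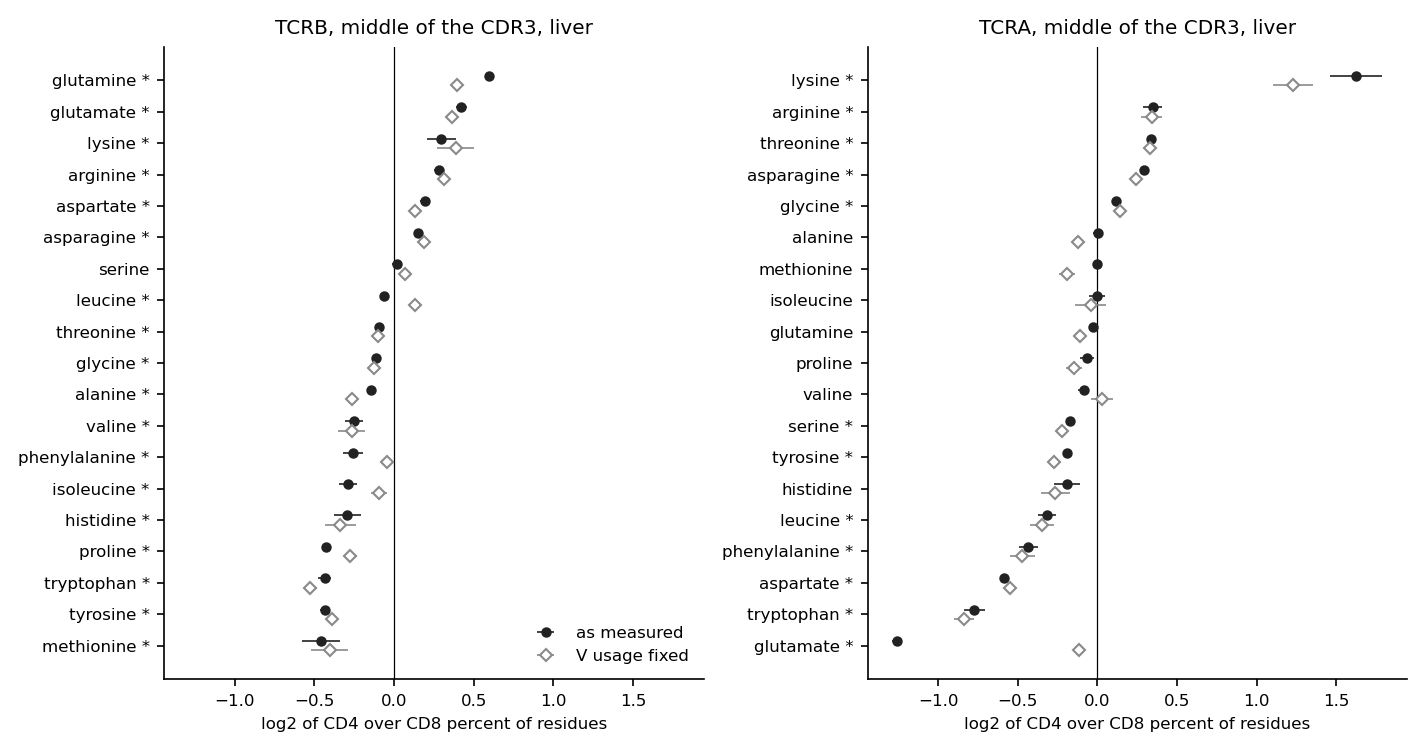
Difference in amino acid usage of the CDR3 middle between CD4 and CD8 in liver (log2 of the ratio of percentages, ± SE, 6 pairs), as measured (filled) and with V usage fixed (open), for TCRB (left) and TCRA (right), with stars for those called by limma and cysteine not drawn. TCRA glutamate moves from -1.26 to -0.12 with V usage fixed, whereas TCRA lysine stays above 1.

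Frequency-weighted means of the whole CDR3 gave the same contrast between the chains. CD4 had the shorter TCRA and the longer TCRB loop. TCRA CDR3 averaged 13.4 residues ± 0.0175 (SD, n = 6) in CD4 and 13.7 ± 0.0235 (n = 6) in CD8, and TCRB 13.7 ± 0.0415 and 13.5 ± 0.0266. Each difference had the same sign in 6 of 6 pairs without overlap (exact two-sided sign-flip permutation p = 0.03125, the smallest that 6 pairs allow, adjusted p = 0.0391 over 10 features). The share of 13-residue CDR3 in TCRA was 33.1% ± 1.14 in CD4 and 22.6% ± 0.567 in CD8, while the share of 15 residues was 11.5% ± 0.804 and 18.5% ± 0.742.

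Net charge of the middle was less negative in CD4 for TCRA, at -0.0822 ± 0.0153 against -0.386 ± 0.00876, and more negative for TCRB, at -0.429 ± 0.0126 against -0.344 ± 0.0182 (exact permutation adjusted p = 0.0391 for both). The TCRB charge difference was 0.0016 when each clonotype was counted once. Hydropathy of the TCRB middle was lower in CD4, at -1.21 ± 0.0303 against -0.943 ± 0.0206 (exact permutation adjusted p = 0.0391). That of TCRA missed the threshold, at -1.31 ± 0.0153 and -1.26 ± 0.0314 (adjusted p = 0.0694, exact permutation), but passed it without the pairs (0.0093, exact permutation) and with each clonotype counted once or V usage fixed (0.0446 for both). The number of bases between V and J was close in the 2 cell types, at 2.00 and 1.92 in TCRA and 8.24 and 8.43 in TCRB, with overlapping groups but 1 sign in 6 of 6 pairs (exact permutation adjusted p = 0.0391). Without the pairs the TCRB difference in bases was not called (adjusted p = 0.0505, exact permutation), nor was that of TCRA with each clonotype counted once (adjusted p = 0.0781, exact permutation). CDR3 with no such base made up 33.0% ± 0.932 of CD4 and 35.7% ± 0.987 of CD8 in TCRA, without overlap, and 4.33% and 4.38% in TCRB (adjusted p = 0.906, exact permutation). With V usage fixed, the TCRA length difference became 0.0402 residues, of the opposite sign and still called (exact permutation adjusted p = 0.0446). The TCRA difference in bases became -0.0489 and was not called (exact permutation adjusted p = 0.117). That in TCRA CDR3 with no base fell from -2.70 to -0.425 percentage points and was no longer called (exact permutation adjusted p = 0.25).

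Clonality did not separate the cell types. The Shannon effective number of TCRA clonotypes ranged from 4313 to 7498 in CD4 and from 4031 to 6860 in CD8, and that of TCRB from 4719 to 9460 and from 4523 to 8782. The 100 most frequent clonotypes held 13.9% ± 1.64 (SD, n = 6) of CD4 and 13.4% ± 2.66 (n = 6) of CD8 TCRA, and 13.2% ± 1.67 and 11.3% ± 2.92 of TCRB. None of the 8 tests of these measures, inverse Simpson and clonotype number was called (exact sign-flip permutation, adjusted p = 1, none unadjusted either, smallest 0.1875). The direction differed between genotypes. CD4 had the higher Shannon number than CD8 in both WT and both STAT3ko pairs, for either chain, and the lower in both STAT3koPD-1ko pairs, and the difference between genotypes was not tested. TCRA gave 4404 and 4533 in CD4 against 6301 and 6860 in CD8 of the STAT3koPD-1ko pools.

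How much CD4 and CD8 shared depended on whether the listed V had to match. For TCRA, a pair shared 744 to 1530 clonotypes with the same CDR3, V and J (mean 1095), which were 6.53% of the CD4 and 7.45% of the CD8 clonotypes listed and held 8.07% ± 0.8289 (SD, n = 6) and 13.9% ± 1.91 of the listed frequency. For TCRB the mean was 534.5 shared clonotypes, 3.08% of CD4 and 3.24% of CD8, with 4.07% ± 0.640 and 4.98% ± 1.35 of the frequency. By CDR3 alone, which does not depend on the V listed for it, 25.1% of CD4 and 28.7% of CD8 clonotypes were shared in TCRA, and 10.7% and 11.4% in TCRB. These held 39.5% of CD4 and 42.3% of CD8 frequency in TCRA, and 14.3% and 17.6% in TCRB.

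Whether overlap was greater within a pair than across pairs depended on the measure. Taking the lower frequency of each shared clonotype and adding these up, overlap was 3.33% ± 0.405 (SD, n = 6) for the same genotype and number and 3.27% for the 30 other combinations in TCRA, and 1.24% ± 0.190 and 1.18% in TCRB (exact two-sided permutation over 720 pairings, p = 0.147 and 0.108, adjusted p = 0.147 for both). The same pair was the highest of its CD4 library in 1 of 6 cases for each chain. By the Jaccard index, the share of clonotypes found in both, the same pairs were higher (3.57% and 3.50% in TCRA, adjusted p = 0.0431, 1.59% and 1.41% in TCRB, adjusted p = 0.0028, exact permutation). Libraries of 1 cell type and different genotypes overlapped by a mean of 24.1% for CD4 and 22.5% for CD8 in TCRA, and 7.65% and 9.10% in TCRB. Within 1 table each CDR3 has a single V, so these values compare with the overlap of CD4 and CD8 by CDR3 alone, which was 14.2% for same pairs in TCRA and 4.69% in TCRB, and the differences between them were not tested. By CDR3 alone, same pairs exceeded the others in TCRB, which averaged 4.51% (exact permutation adjusted p = 0.0306), and were not called in TCRA at 14.1% for the others (adjusted p = 0.365, exact permutation).

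**Figure D4:**
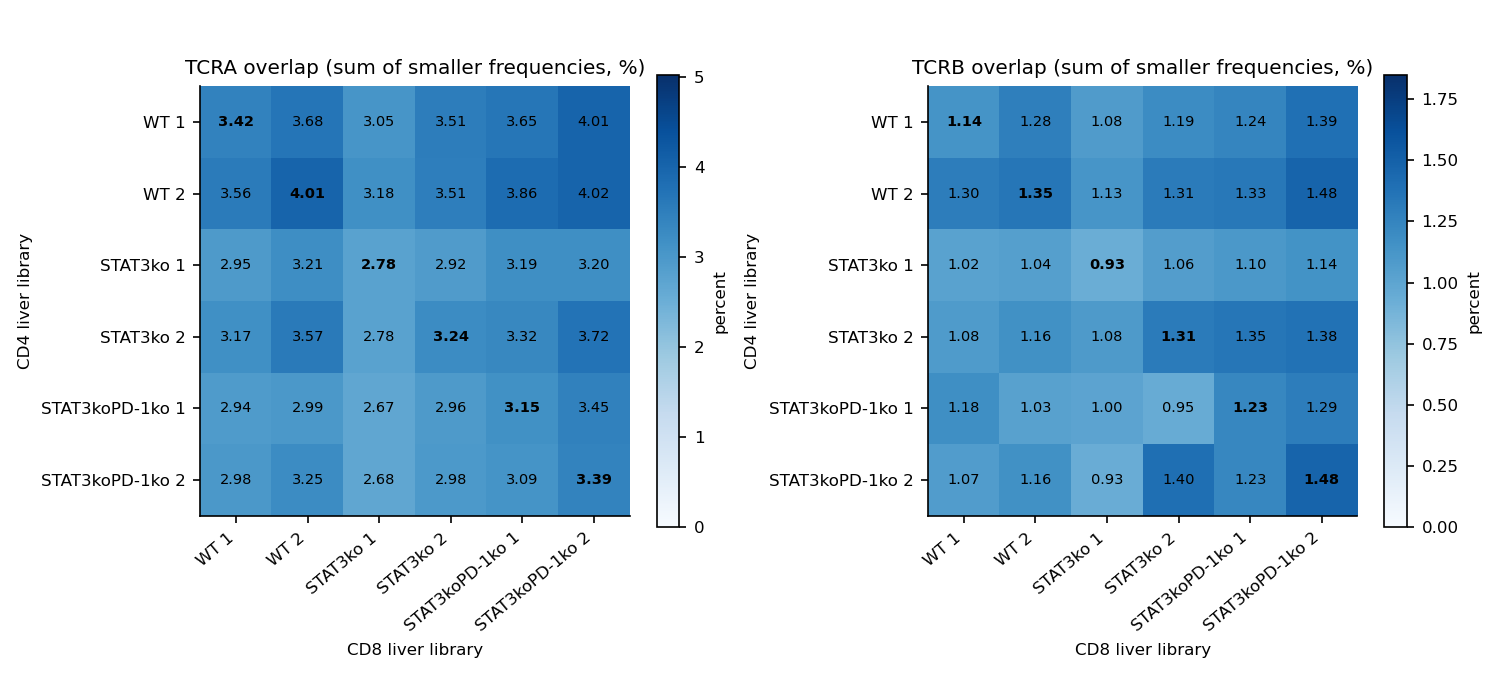
Overlap of each CD4 liver library (vertical) with each CD8 liver library (horizontal), as the sum of the smaller frequency of each clonotype in percent, for TCRA (left) and TCRB (right), with same-pair combinations in bold on the diagonal. The diagonal averages 3.33% in TCRA and 1.24% in TCRB beside 3.27% and 1.18% off it.

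The bases between V and J include those of the D segment in TCRB, so added bases were not counted alone. Shared clonotypes had fewer bases between V and J, in both chains, than those listed in only 1 library of a pair. In TCRB they had 6.56 bases ± 0.296 (SD, n = 6) between V and J in CD4 and 6.59 ± 0.297 in CD8, against 8.58 and 8.79 for the others, and in TCRA 1.61 ± 0.0301 and 1.599 ± 0.0514 against 2.58 and 2.55. They were lower in 6 of 6 libraries in each of the 4 comparisons (exact two-sided sign-flip permutation p = 0.03125, adjusted p = 0.03125). CDR3 length went opposite ways, at 13.3 residues for shared TCRB clonotypes against 13.8 and 13.7, and 13.8 for shared TCRA clonotypes against 13.6 and 13.7 (exact permutation p = 0.03125 in each). The TCRA length difference turned to -0.28 in CD4 and -0.47 in CD8 when sharing was defined by CDR3 alone.

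All 12 liver libraries listed 106 TCRA and 10 TCRB clonotypes. The TCRA ones held 1.67% of CD4 and 3.52% of CD8 TCRA frequency, with a median CDR3 of 14 residues and a median of 0 bases between V and J. For 10 of the 106 (9.43%) the cell types did not overlap, and in each of those CD8 was above CD4. Of these 10, 7 had glutamate in the middle of the CDR3, as did 23 of the 96 that overlapped. By CDR3 alone, 534 TCRA sequences were in all 12 libraries, of which 25 were above in CD4 and 18 in CD8 (8.05% in all), and glutamate was in 0 of those 25, 8 of the 18 and 44 of the 491 others. In TCRB, 81 sequences were in all 12 by CDR3 alone, 2 of them above in CD4 and 6 in CD8 (9.88%). These counts are a description, since the same clonotypes enter the frequencies tested above.

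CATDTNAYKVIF, the leading shared TCRA clonotype, was at 0.00878% to 0.106% of CD4 and 0.0296% to 0.192% of CD8, with overlapping groups. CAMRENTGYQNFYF was at 0.00164% to 0.156% of CD4 and 0.0502% to 0.213% of CD8. Its highest value in both cell types was in WT 1. Of the other leading TCRA clonotypes, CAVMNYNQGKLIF had means of 0.0643% in CD4 and 0.0284% in CD8, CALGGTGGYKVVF 0.0293% and 0.0283%, and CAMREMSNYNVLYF 0.0274% and 0.0542%. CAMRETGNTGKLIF, a TRAV16N clonotype with another J, had the lowest ratio of CD4 to CD8 among those of at most 14 residues, with a mean of 0.00243% in CD4 and 0.0340% in CD8, 13.99-fold higher, although the groups overlapped. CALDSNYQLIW did not overlap between the groups, at 0.000613% to 0.00379% in CD4 and 0.0103% to 0.0813% in CD8, nor did CALRDYSNNRLTL, at 0.000315% to 0.00720% and 0.00932% to 0.0650%. In the other direction, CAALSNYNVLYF had a mean of 0.0584% in CD4 and 0.0101% in CD8 (5.76-fold, overlapping).

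Among the 10 TCRB clonotypes, 2 did not overlap (20%). One was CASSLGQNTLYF, at 0.00302% to 0.00679% in CD4 and 0.00858% to 0.0826% in CD8, 7.01-fold higher in CD8. The other was a TRBV21 sequence of only 6 residues, YAEQFF, that lacks the usual cysteine, at 0.331% to 0.472% in CD4 and 0.220% to 0.270% in CD8. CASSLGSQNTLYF, on the same V and J as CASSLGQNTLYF and 1 residue longer, had the opposite tendency, at 0.00605% to 0.0669% in CD4 and 0.00446% to 0.0220% in CD8, with overlap. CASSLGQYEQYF and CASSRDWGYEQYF had means of 0.0179% and 0.0170% in CD4 and 0.0303% and 0.0173% in CD8, and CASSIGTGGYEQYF had 0.00372% in CD4 and 0.0155% in CD8.

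Loss of STAT3 or of STAT3 and PD-1 did not measurably change the CD4 to CD8 difference in V usage. With the genotype as a factor in limma, 0 of 20 TRBV segments (0%, 0 at an unadjusted p below 0.05, smallest adjusted p = 0.976) and 0 of 43 TRAV segments (0%, 3 unadjusted, smallest adjusted p = 0.271) differed between genotypes. Each genotype had only 2 pairs, so modest differences were not detectable in this design.

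The difference in liver departed from that in gut for many segments. For TRBV, 15 of 21 segments had a CD4 to CD8 difference that depended on the tissue (71.4%), with liver minus gut above 0 for 10 and below 0 for 5. The fit held genotype and tissue but did not match liver and gut by replicate number. TRBV26 held a mean of 4.86% of CD4 in spleen before HCT, 9.09% in liver and 25.4% in gut, but 1.02%, 0.930% and 1.40% of CD8, so the difference was smaller in liver than in gut (liver minus gut, log2 -0.997 ± 0.162, adjusted p = 1.8e-05). TRBV23 gave 1.87%, 3.70% and 10.6% in CD4 (-1.46 ± 0.194, adjusted p = 2.3e-06). TRBV14 in CD4 was at 7.55% in spleen, 6.43% in liver and 3.44% in gut, with CD8 at 7.38%, 8.06% and 9.65% (1.19 ± 0.180, adjusted p = 8.6e-06). TRBV16 in CD4 was at 17.3%, 15.4% and 11.4% (0.65), and TRBV29 in CD8 at 23.5%, 20.9% and 19.2% and in CD4 at 3.71%, 2.99% and 1.63% (0.77).

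The share of reads listed also differed between the tissues. Gut replicate 2 libraries listed 47.8% to 51.5% of CD4 and 53.2% to 58.0% of CD8 TCRB reads, against at least 85.6% in liver, and the part of this in the tissue differences was not tested. With each clonotype counted once 5 segments were called instead of 15, and TRBV26 was at 0.0076, TRBV16 at 0.0485 and TRBV29 at 0.19, none of them called. TRBV16 was also not called within replicate 2 pairs (0.49, adjusted p = 0.089). Without the pair WT 2, 7 were called. Of 43 TRAV segments, TRAV8D-1 alone differed between tissues (2.33%, 9 at an unadjusted p below 0.05), at 3.50% of CD4 and 2.68% of CD8 in liver and 2.37% and 3.22% in gut (0.85 ± 0.197, adjusted p = 0.015). It was not called without the pair STAT3ko 1 or STAT3koPD-1ko 2.

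**Figure D5:**
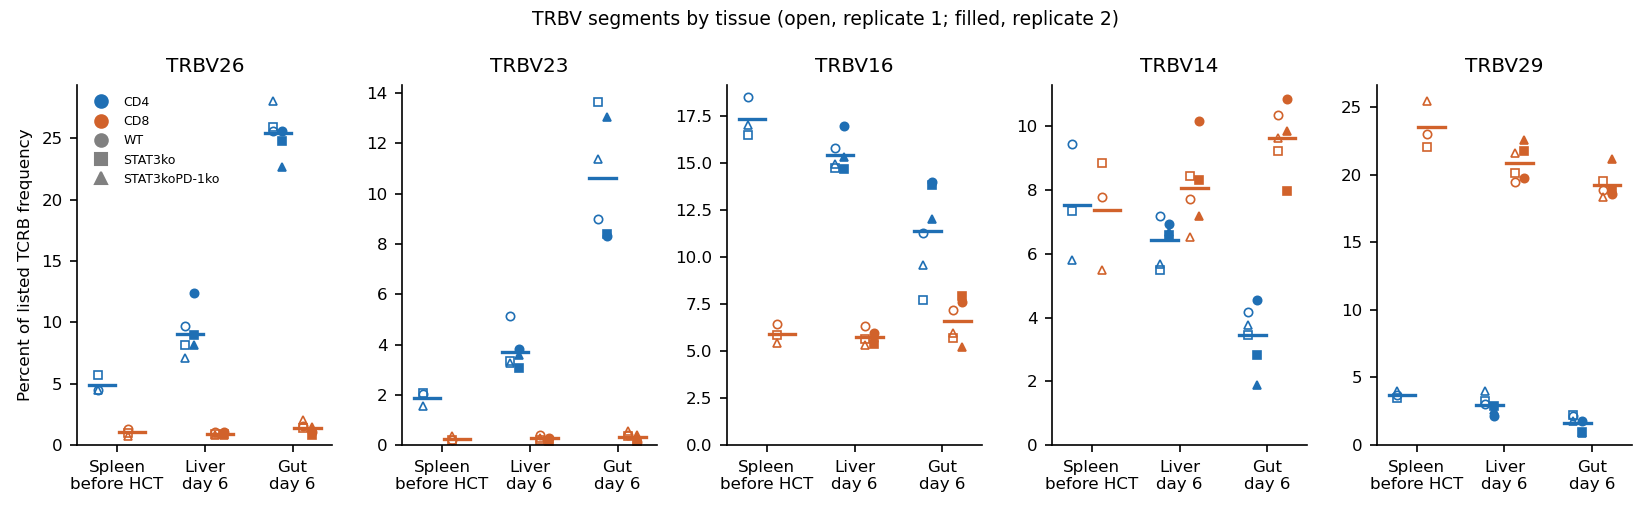
Usage of 5 TRBV segments, as percent of listed TCRB frequency, in spleen before HCT (3 pairs), liver (6) and gut (6) on day 6, with CD4 in blue, CD8 in orange, open points for replicate 1, filled for replicate 2 and bars for means. TRBV26 in CD4 averages 4.86%, 9.09% and 25.4%, while no CD8 library exceeds 2.01%.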

How the data were processed

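The tables analysed here, deposited by the authors, hold for each chain and cell type the fraction of a library's reads assigned to each clonotype. Per the labels and the study's methods, TCR transcripts were amplified from RNA with a 5′ template-switching kit, clonotypes were called with MiXCR and libraries joined with VDJtools, and the processing notes name mm10. The join listed only CDR3 found in at least 2 libraries. Its count of libraries reached 18, above the 15 libraries available for each table, so it includes libraries not seen here. Deposited columns in other units (V, D and J names, their positions in the CDR3 and the number of libraries) were used for annotation and filters. The files gave no counts, so no interval for depth is printed, and a clonotype at 0 is only listed at 0.

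Usage was the percent of listed frequency per segment, for segments with a mean of at least 0.5%. It was tested on log2(percent + 0.1) with limma 3.58.1 in R 4.3.3, and amino acids on log2(percent), with the pair in the fit and Benjamini-Hochberg adjustment within a table of features. Between tissues, the CD4 minus CD8 differences were fitted with genotype and tissue, without matching liver and gut by number. Between genotypes they were fitted with genotype alone. Single values were tested by exact sign-flip permutation of 6 pairs (64 arrangements). Computations used Python 3.11.15. The limma step was tested on simulated data. Segments were placed by name on GENCODE GRCm38, 59 of 68 matching.

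Segments were named by size of difference (up to 8 V, 4 J and 4 amino acids in each direction among those called, with all members of the listed families), clonotypes by frequency or ratio among those in all 12 libraries, with CDR3 of at most 14 residues. The members and lists were chosen with earlier results of these data known. The alternatives on the V listed for a CDR3, on CDR3 in 1 of the tables or in exactly 2 libraries, on CDR3 alone and on the 6-residue TRBV21 sequence were added after seeing the data.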

Additional observations from a re-analysis of the deposited data

Results flagged for a closer look

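In 10 of 190 groups of 6 libraries, 1 library stood far from the other 5 by Dixon's criterion, which chance alone meets in about 1 in 20 groups. TRBV23 in CD4 was 5.13% in WT 1, beside 3.05% to 3.82% in the others. TRAV14N-3 in CD8 was 0.359% in STAT3ko 1, beside 0.629% to 0.761%. TRAV16N and the TRAV16 family in CD8 were 29.0% and 29.1% in STAT3koPD-1ko 1, above the other libraries. TRAV3-4 in CD4 was 0.848% in WT 1, beside 0.283% to 0.449%. TRBJ1-3 and TRBJ2-7 in CD4 were lowest in STAT3koPD-1ko 2, at 5.14% and 16.5%. TRAJ37 in CD8 was highest in STAT3ko 1, at 4.12%. In the TCRA CDR3, asparagine in CD8 was lowest in WT 1, at 15.8%, and aspartate in CD4 highest in STAT3ko 2, at 2.92%.

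By limma, the CD4 to CD8 difference in usage differed between liver and gut for 14 segments named here by size of difference in each direction. TRBV2 and TRBV4 were also called (0.41 and 0.37). On the log2 scale, liver minus gut was 1.19 for TRBV14, 0.77 for TRBV29, 0.65 for TRBV16, 0.54 for TRBV13-3, 0.52 for TRBV5, 0.51 for TRBV13-2, 0.46 for TRBV17 and 0.44 for TRBV13-1. It was -1.46 for TRBV23, -0.997 for TRBV26, -0.46 for TRBV12-2, -0.42 for TRBV21 and -0.36 for TRBV12-1. For TRAV8D-1 it was 0.85. TRBV14 and TRBV23 kept their call in each of 11 other settings, and TRBV29, TRBV13-3 and TRBV26 in 10. TRBV16, TRBV5 and TRBV13-2 kept it in 9, TRBV12-2 and TRBV13-1 in 7, TRBV17 and TRAV8D-1 in 5, and TRBV12-1 in 3, while TRBV21 kept it in 5 of 9. Leaving out the single pair WT 2 ended the call of TRBV13-2, TRBV17, TRBV13-1, TRBV12-2, TRBV21 and TRBV12-1, at 0.38, 0.40, 0.40, -0.41, -0.41 and -0.35.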

How the results depend on the processing

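Of 1809 tests and counts recomputed under other settings, 1695 kept their direction and their side of the threshold (counts within 1.5 times), and 14 values reversed. A further 208 values, of CDR3 features, diversity and shared clonotypes with 5 or 3 pairs, kept their size within the spread between pairs but have no test, since sign flips then cannot go below 0.0625 or 0.25, and 16 overlaps with fewer pairs were not tested. With all segments tested, 64 TRAV segments were called, and with CDR3 of exactly 2 libraries 23 TRAV, 5 TRBJ and 0 TRAJ segments were. With V from the CD4 table TRBV15 reversed to -0.0050, and with V from the CD8 table TRAV3-3 to 0.0851. With 3 residues left out at each end TCRB glutamate reversed to -0.18 and TCRA arginine to -0.46. Within replicate 1 pairs 9 TCRB amino acids were called. Between liver and gut, 5 TRBV segments were called with each clonotype counted once, when TRBV26 reversed to 0.0076, and 7 within replicate 2 pairs, and 0 TRAV segments were called with all segments, each clonotype counted once or within either replicate number. With 1 pair left out, 7 to 14 TRBV and 0 to 1 TRAV segments differed between tissues, and 0 to 1 TRAV segments between genotypes.

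With V usage fixed, TCRA length moved to 0.0402, bases to -0.0489, CDR3 with no base to -0.425 percentage points and hydropathy to -0.0944, and TCRB CDR3 with no base to 0.557. With each clonotype counted once, TCRA hydropathy was -0.0355, TCRA bases 0.0342 (no longer called) and TCRB charge 0.0016. The TCRA Shannon number difference was -0.0538 (log2) over the 3000 most frequent clonotypes, and the TCRB clonotype number difference -0.0356 over those in at least 3 libraries. Same-pair overlap exceeded other pairs by 0.0751 (TCRA) and 0.180 (TCRB) by the Jaccard index and by 0.172 in TCRB by CDR3 alone, and was -0.0409 in TCRB above 0.01%. By CDR3 alone, shared TCRA CDR3 differed in length by -0.282 in CD4 and -0.467 in CD8. Except where a setting's own construction (fewer libraries, fewer segments) changed what was tested, the cause was not tested.

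Segment usage did not show that the replicate numbers pair CD4 with CD8, since deviations from group means correlated at 0.14, 0.32 and -0.18 over TRBV and 0.07, -0.14 and -0.02 over TRAV in WT, STAT3ko and STAT3koPD-1ko. Clonotype sharing gave a mixed answer, higher in same pairs by the Jaccard index (exact permutation adjusted p = 0.0431 in TCRA and 0.0028 in TCRB) and by overlap in frequency on CDR3 alone in TCRB (0.0306), but not by overlap on CDR3, V and J in either chain. With no replicate block, 19 TRBV, 39 TRAV, 10 TRBJ and 29 TRAJ segments, 14 TRAV families, 18 TCRB and 13 TCRA amino acids were called. Without the paired block TCRA hydropathy passed the threshold (-0.0445, exact permutation adjusted p = 0.0093) and TCRB bases did not (-0.190, adjusted p = 0.0505). Depth is unknown, and clonotypes found in a single library of the join are not listed.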
